A study of Mus musculus with 12 samples.

Results

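The immunity-related GTPases of the IRG family were followed in 12 mouse tumor libraries. The 7 members Irgm1, Irgm2, Igtp, Iigp1, Tgtp1, Tgtp2 and Ifi47 were chosen by name as members of the family, with earlier results of these data known, and each had its own row among the 32288 rows of every count file. All 7 passed the filter on low counts and were tested among 18804 genes.

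IRG proteins are large GTPases that mouse cells make in response to interferon-gamma (IFNG). This cytokine binds its receptor at the cell surface, and signalling through JAK kinases then leads to binding at gamma-activated sites in promoters and to induction of the transcription factor IRF1. In infected cells the IRG proteins gather on the vacuoles of parasites such as Toxoplasma gondii and disrupt them. The family falls into regulators and effectors. The regulators Irgm1, Irgm2 and Igtp (also called Irgm3) carry a glycine-methionine-serine motif in the nucleotide-binding site and sit on the cell's own membranes. The effectors Iigp1 (Irga6), Tgtp1 and Tgtp2 (Irgb6) and Ifi47 (Irgd) carry the usual glycine-lysine-serine motif and load onto the vacuole.

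RNA was taken from subcutaneous tumors of adult DBA/2 mice, 1 tumor per mouse, grown from cells of the mouse mastocytoma line P815. P815-IFNG cells carry the light-sensitive activator GAVPO under an EF-1α promoter, the genes Ifng and Cxcl10 with a secreted luciferase under the promoter that GAVPO switches on in blue light, and an mRuby-firefly luciferase reporter. P815-M cells, the control, carry that reporter only, and both lines are 1 single-cell clone each, so that a difference between the lines and a difference between clones cannot be told apart. Each line was kept under blue light for 12 h per day over 6 days or without blue light (dark), with 3 mice in each of the 4 groups. The paper reports single housing in the illumination cages for light mice and does not give the housing of dark mice. Light and housing therefore cannot be told apart in any comparison of light with dark. The study used mice of both sexes, and the sex of each mouse was not used here.

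In 10 libraries the total lay between 2211234 and 2946792 counts. The third replicate of P815-IFNG light and that of P815-IFNG dark held 41473500 and 42338096 counts. These libraries, called deep for their total counts, are marked or given apart in the levels by library. Means with SD and some marker ranges in P815-IFNG tumors pool them with the others. They also differed in kind. The gene mt-Nd6, which lies opposite the other mitochondrial coding genes, took 29.0% to 47.9% of the mitochondrial coding counts in the 10 libraries and 3.56% to 3.85% in the deep pair. The kit keeps the strand of the RNA and HTSeq was run with its default setting, but whether the same strand was counted in both kinds of library was not tested, so a count in either kind may hold reads of the strand opposite to the gene. Mast cell markers checked the label of the tissue: 6 to 9 of 9 had a count in each library, with Kit and Cpa3 among them in all 12, and their summed level was 1756 to 2669 CPM (TMM-normalized counts scaled to a fixed library total) in the 10 libraries and 7823 and 10149 CPM in the deep pair.

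In the GRCm38 annotation (mm10) 6 of the 7 genes lie on chromosome 11 in 2 groups. Irgm1 (chr11:48861968-48871683, minus strand), Tgtp1 (chr11:48985327-48994172, minus), Tgtp2 (chr11:49057194-49064206, minus) and Ifi47 (chr11:49076587-49096974, plus) stand within 235.0 kb. Igtp (chr11:58199556-58207591, plus) and Irgm2 (chr11:58199618-58222782, plus) overlap within 23.2 kb and share 162 exonic bases.

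The promoters are shown because members that move together can be compared for the letters that interferon-activated factors are known to bind. RefSeq promoter windows (GRCm38.p6, 250 bases before to 50 after the start) were found for 6 of the 7 members, and Iigp1 was not among them. The core of an interferon-stimulated response element, GAAA and again GAAA with any 2 bases between them, was searched on both strands and stands in 3.44% of all 32851 windows and in 5 of the 6 IRG windows. TTCNNNGAA, the core of a gamma-activated site, stands in 8.30% of all windows and in 4 of the 6. Capitals mark these letters in the stretches below, each printed 5′ to 3′ on the strand of its gene.
Irgm1: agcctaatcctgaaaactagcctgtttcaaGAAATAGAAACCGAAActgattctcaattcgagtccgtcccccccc
Irgm2: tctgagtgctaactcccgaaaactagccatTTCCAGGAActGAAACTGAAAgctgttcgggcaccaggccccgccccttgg
Igtp: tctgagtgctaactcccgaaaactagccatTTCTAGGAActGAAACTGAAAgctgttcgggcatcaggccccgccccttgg
Tgtp1: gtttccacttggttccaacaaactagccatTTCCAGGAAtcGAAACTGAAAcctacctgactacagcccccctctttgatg
Tgtp2: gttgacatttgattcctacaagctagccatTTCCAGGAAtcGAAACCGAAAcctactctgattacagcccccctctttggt

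These stretches lie at chr11:48871405-48871480 (minus strand) for Irgm1, chr11:58214872-58214952 (plus) for Irgm2, chr11:58199481-58199561 (plus) for Igtp, chr11:48992284-48992364 (minus) for Tgtp1 and chr11:49064243-49064323 (minus) for Tgtp2. The stretches of Irgm1, Irgm2 and Tgtp1 lie inside the gene spans given above, as the RefSeq starts used here differ from the starts of those spans. In Irgm2, Igtp, Tgtp1 and Tgtp2 both cores stood side by side with the same spacing, ending 55, 25, 68 and 61 bases before the RefSeq start. Irgm1 held a pair of overlapping response element cores between 30 and 15 bases before its RefSeq start and no gamma-activated site core. Ifi47 held neither in its window. The gamma-activated site core followed after any 2 bases by the response element core, a pattern chosen after the stretches had been seen, stood in 5 of the 32851 windows, those of these 4 genes and of Gm12185, a related IRG gene. The Irgm2 and Igtp windows were identical at 81.3% of 300 positions after alignment and those of Tgtp1 and Tgtp2 at 70.3%, against 46.7% to 54.7% for the other pairs. A match is a description of letters, and no binding was measured.

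The level of each regulator is given first, library by library in CPM, with the deep library last in each P815-IFNG group. Irgm1, which controls the other IRG proteins and is needed for resistance to several intracellular pathogens, had 125, 51.7 and 67.0 CPM in P815-IFNG light and 63.9, 17.4 and 14.1 in P815-IFNG dark. In P815-M tumors it had 29.1, 28.7 and 37.1 CPM in light and 14.8, 3.13 and 22.2 in dark. Every P815-M light library lay above every P815-M dark library, whereas the P815-IFNG groups overlapped through the first dark library. Irgm2 had 83.3, 32.7 and 44.6 CPM in P815-IFNG light and 35.7, 23.1 and 7.99 in P815-IFNG dark. Its P815-M values were 29.6, 32.6 and 27.7 CPM in light and 8.98, 4.69 and 23.5 in dark. The pattern of overlap was that of Irgm1. Igtp had 157, 60.0 and 57.0 CPM in P815-IFNG light and 57.1, 13.1 and 4.02 in P815-IFNG dark. Under P815-M it was at 59.7, 37.8 and 59.5 CPM in light and 16.4, 13.5 and 30.9 in dark. The P815-IFNG groups of Igtp touched only where the deep light library met the first dark library.

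Among the effectors, Iigp1, which lies apart from the others on chromosome 18 and is the best known IRG effector, had the highest CPM of the 4 effectors in every library but the deep dark one. It stood at 275, 136 and 64.5 CPM in P815-IFNG light and 95.9, 36.5 and 2.25 in P815-IFNG dark. In P815-M tumors it was at 89.8, 41.2 and 76.9 CPM in light and 25.4, 13.0 and 48.1 in dark. Its light and dark groups overlapped in both lines, and in P815-IFNG tumors the overlap came from the deep light library. Tgtp1 had 20.1, 4.88 and 15.9 CPM in P815-IFNG light and 1.86, 1.34 and 0.179 in P815-IFNG dark, and those groups did not overlap. Its P815-M values were 2.60, 3.83 and 4.92 CPM in light and 2.34, 0.521 and 0.823 in dark, which rest on 1 to 11 counts per library. A count of 3, taken as the floor, is worth 1.02 to 1.36 CPM in the 10 libraries and 0.0709 to 0.0723 CPM in the deep pair, so that Tgtp1 was at or under the floor in 2 of the 3 P815-M dark libraries.

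Tgtp2 had 40.6, 21.96 and 54.4 CPM in P815-IFNG light and 21.7, 5.36 and 3.75 in P815-IFNG dark, and the lowest light library lay just above the highest dark library. In P815-M tumors it was at 17.6, 4.79 and 12.1 CPM in light and 3.51, 0.521 and 7.82 in dark, with overlap. Ifi47 had 71.6, 37.6 and 29.5 CPM in P815-IFNG light and 35.7, 15.1 and 13.7 in P815-IFNG dark. Its P815-M levels were 23.9, 17.7 and 18.3 CPM in light and 12.5, 7.29 and 20.6 in dark. Light and dark overlapped for Ifi47 in both lines.

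**Figure D1:**
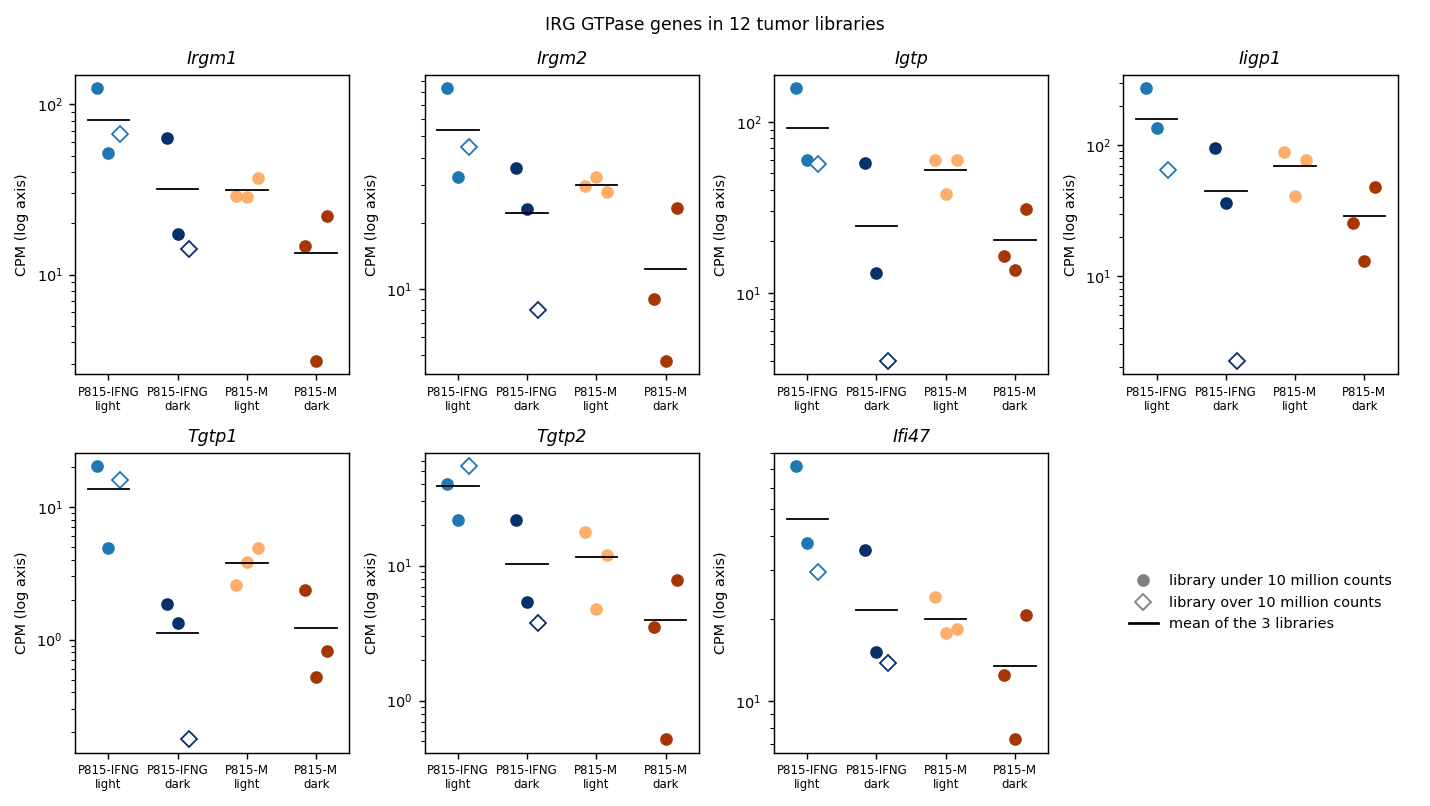
Level of each IRG gene by library, in CPM on a log axis, with 1 point per tumor library, open diamonds for the 2 deep libraries and a bar for the mean of the 3 libraries of a group. The first P815-IFNG light library is the highest of the 12 for 6 of the 7 genes.

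The members followed the library. The first P815-IFNG light library was the highest of all 12 for 6 members and the highest of the 10 for all 7, and the second P815-M dark library was the lowest of the 10 for 6 members. Over the 10 libraries, log2 CPM of the 21 pairs of members correlated at Pearson's r = 0.72 to 0.97, with a median of 0.91. This is a description over libraries that share groups and depth, with no test.

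The members were then ordered by level per kilobase of exon. Igtp was first in all 10 libraries, with a median of 23.5 CPM per kb, and Tgtp1 was last in all 12, with a median of 0.770 CPM per kb in the 10. Iigp1 ranked between 2 and 4 in the 10 libraries and 6 in both deep libraries. Between the deep light and the deep dark library the order changed, with Igtp at rank 1 and 4 and Ifi47 at rank 4 and 1. The neighbours in the order overlapped in their ranges over libraries. The part in these ranks of the strand counted, and of reads common to Tgtp1 and Tgtp2, was not tested. In P815-IFNG light tumors the mean was 45.2 ± 28.2 CPM per kb (SD, n = 3, deep library included) for Igtp, 27.2 ± 18.4 for Iigp1, 18.7 ± 9.03 for Ifi47, 14.5 ± 7.16 for Irgm2, 14.0 ± 6.62 for Irgm1, 13.3 ± 5.53 for Tgtp2 and 4.25 ± 2.45 for Tgtp1.

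The first comparison asked whether the IRG genes differed between light and dark over both lines. Over the mean of both lines all 7 members had values above 0, and 6 of 7 were called higher in light tumors, where 0.697% of all tested genes were called higher. The limits for a call were those of the study, 0.05 for the adjusted p and 1 for the size of the log2 fold change, here with the quasi-likelihood test of edgeR and Benjamini-Hochberg values over all genes. The median log2 fold change of the 7 was 1.83, against -0.0027 for all genes. The share of mt-Nd6 also moved with light: in the 10 libraries it was 40.5% to 47.9% in light and 29.0% to 36.7% in dark, without overlap, and in the deep pair 3.56% in light and 3.85% in dark. Its part in the IRG values was not tested. In these bulk tumors, a larger number of cells that express a gene and more RNA per cell cannot be told apart.

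Among the regulators, Igtp rose by 1.87 on the log2 scale (SE 0.34, edgeR adjusted p = 0.00774). Irgm2 followed with 1.39 (0.30, adjusted p = 0.0189 by edgeR) and Irgm1 with 1.36 (0.33, adjusted p = 0.0342 by edgeR). Of the effectors, Tgtp1 had the largest value, 2.97 (SE 0.55, edgeR adjusted p = 0.00822). Iigp1 rose by 1.93 (0.38, adjusted p = 0.0122 by edgeR) and Tgtp2 by 1.83 (0.46, adjusted p = 0.0432 by edgeR). Ifi47, at 0.82 (0.24, adjusted p = 0.0814 by edgeR), was not called.

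These calls depended on the deep pair and on the model's term for it. In the 10 libraries alone all 7 log2 fold changes stayed above 0, with a median of 1.33, but 0 members were called (edgeR adjusted p from 0.0520 to 0.164), where 77 genes were called. Without the term for the kind of library 0 members were called as well, with 0 genes called in all, and 0 without the first P815-IFNG light library (42 genes). The count was 3 each without the deep light library (112 genes), the deep dark library (121), the first P815-M light library (59) or the first P815-M dark library (94).

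**Figure D2:**
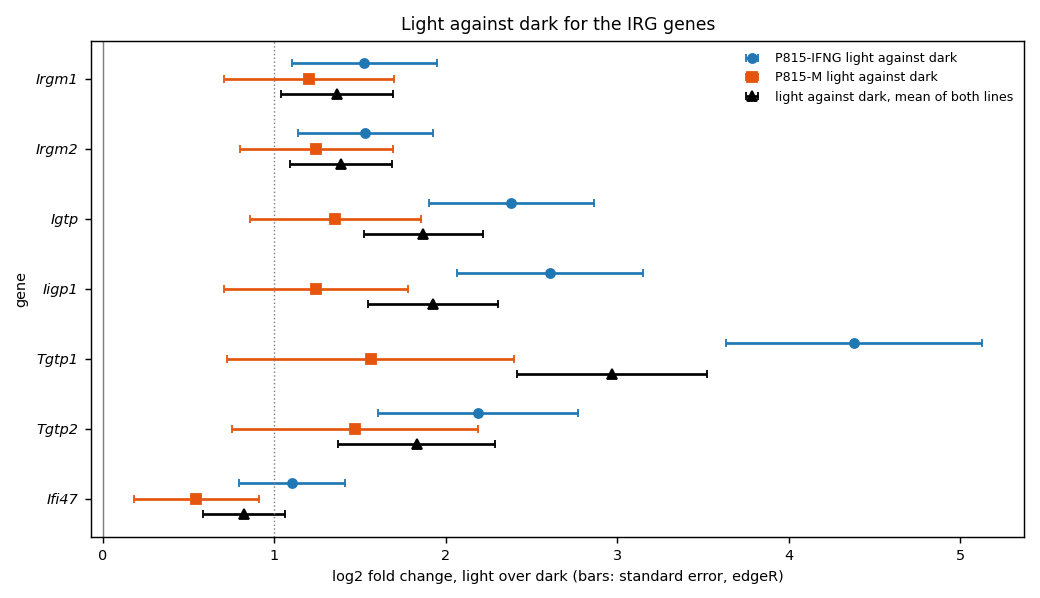
Log2 fold change of light over dark for each IRG gene, in P815-IFNG tumors (circles), in P815-M tumors (squares) and as the mean of both lines (triangles), with bars for a standard error derived from edgeR's F statistic over 12 libraries and a dotted line at a log2 fold change of 1. All 21 values lie above 0, and Tgtp1 in P815-IFNG tumors is the highest at 4.38, where the summed counts of Tgtp1 and Tgtp2, near-identical copies, gave 2.50.

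Within P815-IFNG tumors, in which light switches on the Ifng and Cxcl10 module, the fitted log2 fold changes of light over dark were 1.53 for Irgm1, 1.53 for Irgm2, 2.38 for Igtp, 2.61 for Iigp1, 4.38 for Tgtp1, 2.19 for Tgtp2 and 1.10 for Ifi47. None of the 7 was called by edgeR, at adjusted p from 0.0632 for Tgtp1 to 0.250 for Ifi47, while 0.00532% of all genes were called higher. At an unadjusted p under 0.05 from the same fit there were 7 of 7, against 4.14% of all genes with a value above 0. DESeq2 called 1 member, Tgtp1, among 54 genes called. Light lay above dark in every library for 2 of 7, Tgtp1 and Tgtp2 (two-sided exact permutation test, p = 0.1, the smallest that 3 mice against 3 allow), and for 5 of 7 in the 4 libraries outside the deep pair. The same separation was seen for 0.994% and 18.2% of all genes.

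The pair of deep libraries gave the larger ratio for 6 of the 7 members. The ratio of CPM in light over dark in the deep pair was 88.9 for Tgtp1, 28.6 for Iigp1, 14.5 for Tgtp2, 14.2 for Igtp, 5.58 for Irgm2 and 4.75 for Irgm1. Between the means of the other 2 light and 2 dark libraries it was 7.80, 3.10, 2.31, 3.10, 1.97 and 2.17 in the same order. Ifi47 had 2.15 in both. The deep pair is 1 mouse per group and carries no replicate, so its ratios have no error. The Tgtp1 ratio there rests on 8 counts in the dark library.

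**Figure D3:**
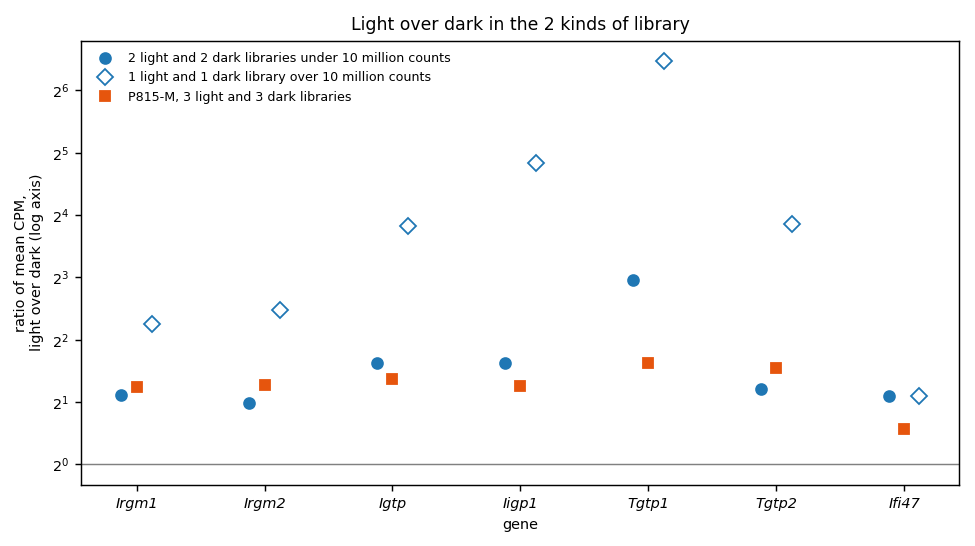
Ratio of mean CPM in light over dark on a log axis for each IRG gene, in the other 4 P815-IFNG libraries (filled circles), in the deep P815-IFNG pair (open diamonds, 1 library each, no error) and in P815-M tumors (squares, 3 against 3). In the deep pair the ratio runs from 2.15 for Ifi47 to 88.9 for Tgtp1, which has 8 counts in the deep dark library, and in the other 4 libraries from 1.97 to 7.80.

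The call count in P815-IFNG tumors depended on single libraries and on the settings. It was 4 of 52 genes called without the second P815-IFNG light library and 5 of 38 without the first P815-IFNG dark library. It was 1 without the second P815-IFNG dark library (of 6 genes called) or without the second (of 14) or the third (of 5) P815-M dark library. It was 7 with no filter on low counts (of 211 genes called) or after ComBat-seq adjustment of the counts (of 157).

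P815-M tumors lack the module, and the question there was whether IRG levels differed with light, and the housing that came with it, in its absence. The fitted log2 fold changes of light over dark were 1.20 for Irgm1, 1.24 for Irgm2, 1.36 for Igtp, 1.24 for Iigp1, 1.56 for Tgtp1, 1.47 for Tgtp2 and 0.54 for Ifi47. No member was called by edgeR (adjusted p 0.219 to 0.578) or by DESeq2, where edgeR called 0.947% of all genes higher, and 4 of 7 had an unadjusted p under 0.05 in edgeR, against 7.47% of all genes with a value above 0. Irgm1, Irgm2, Igtp and Tgtp1 were higher in every light library than in any dark library (two-sided exact permutation test, p = 0.1, the smallest possible), a separation that 10.1% of all genes showed. The 11 macrophage and monocyte markers moved in the same direction: all 11 had a count in every library, and their summed level was 1680 to 1905 CPM in P815-M light and 782 to 1084 CPM in P815-M dark, without overlap. Mast cell markers moved the other way, with 1956 to 1977 CPM in P815-M light and 2101 to 2669 CPM in P815-M dark, and 6 to 8 of 9 with a count. Neutrophil markers, of which 2 or 3 of 5 had a count, were at 35.8 to 47.8 CPM in light and 54.2 to 60.9 CPM in dark, with S100a8, S100a9 or both at 0 in each library. Other marker lists overlapped between P815-M light and dark. The part of these markers in the IRG values was not tested. The count of called members was 1 without the first P815-IFNG dark library (of 231 genes called) or the third P815-M dark library (of 137), and 5 with no filter (of 429).

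In P815-IFNG tumors the same markers summed to 1394 and 2000 CPM in light and 1868 and 1971 in dark outside the deep pair, and to 852 and 735 CPM in the deep light and dark libraries. Endothelial markers, with all 5 counted in each library, were at 30.04 to 40.6 CPM in P815-IFNG light and 41.9 to 127 CPM in P815-IFNG dark, without overlap. Skeletal muscle markers were at 117 to 142 CPM in light, with Myh4 at 0 in each light library, and at 145 to 522 CPM in dark, where all 6 had a count. With the deep pair included, the other lists overlapped between light and dark in this line. Outside it, adipocyte markers were at 10.1 and 7.32 CPM in light and 68.2 and 87.4 in dark, and at 68.5 and 10.8 CPM in the deep light and dark libraries. B cell markers were at 3.62 and 4.88 CPM against 5.89 and 7.70, and 0.556 and 0.179 in the deep pair. Mast cell markers were at 1921 and 1903 CPM against 1900 and 1756, and higher in light in the deep pair too. The part of any of these lists in the IRG values was not tested. T and NK cell markers were low, at 12.7 to 35.0 CPM in P815-IFNG light, 15.4 to 53.0 in P815-IFNG dark, 20.1 to 42.9 in P815-M light and 9.89 to 35.9 in P815-M dark.

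The effect of light did not differ detectably between the lines. The difference of the log2 fold changes, P815-IFNG minus P815-M, was 0.32 for Irgm1, 0.29 for Irgm2, 1.03 for Igtp, 1.36 for Iigp1, 2.82 for Tgtp1, 0.72 for Tgtp2 and 0.56 for Ifi47. None was called by edgeR (adjusted p 0.781 to 0.979) or DESeq2, where 0.016% of all genes were called in either direction, and Tgtp1 alone had an unadjusted p under 0.05, against 5.73% of all genes. The standard errors were 0.48 to 1.16, so that differences of the size measured could not be resolved. In the 10 libraries the difference turned to -0.064 for Irgm1, -0.24 for Irgm2 and -0.25 for Tgtp2.

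Under light, P815-IFNG tumors were compared with P815-M tumors, a comparison that shares its P815-IFNG libraries with the one above. The log2 fold changes were 1.69 for Irgm1, 1.24 for Irgm2, 1.45 for Igtp, 2.11 for Iigp1, 2.20 for Tgtp1, 1.96 for Tgtp2 and 1.46 for Ifi47. In edgeR 0 of 7 were called (adjusted p 0.0604 for Ifi47 to 0.253 for Irgm2), with 0.218% of all genes called higher. DESeq2 called Ifi47 alone of the members, among 86 genes called. At an unadjusted p under 0.05 there were 7 of 7 in edgeR, against 5.27% of all genes with a value above 0. Irgm1, Irgm2, Tgtp2 and Ifi47 were higher in every P815-IFNG library than in any P815-M library, which 9.23% of all genes were, and in the 10 libraries 6 of 7 were, against 12.9%. In P815-M light the levels were 31.6 ± 4.75 CPM for Irgm1 and 19.98 ± 3.39 for Ifi47 (SD, n = 3), against 81.1 ± 38.5 and 46.2 ± 22.3 in P815-IFNG light, its deep library included. The call count was 6 of 161 genes called without the second P815-IFNG light library and 2 of 83 without the first P815-IFNG dark library. It was 1 without the second P815-IFNG dark library (of 92 genes called) or without the second (of 82) or the third (of 77) P815-M dark library. It was 7 with no filter (of 245) or after ComBat-seq (of 262).

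In the dark 0 of 7 members were called between the lines in edgeR (adjusted p 0.156 to 0.816) and in DESeq2, with 1.12% of all genes called higher by edgeR and 3 of 7 had an unadjusted p under 0.05, against 9.24% of all genes with a value above 0. The log2 fold changes of P815-IFNG over P815-M were 1.37 for Irgm1, 0.95 for Irgm2, 0.42 for Igtp, 0.74 for Iigp1, -0.62 for Tgtp1, 1.24 for Tgtp2 and 0.90 for Ifi47. All 7 members overlapped between the dark groups, while 10.9% of all genes were higher in every P815-IFNG dark library. The value of Tgtp1 was 0.31 in the 10 libraries, so its direction was not settled.

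Averaged over light and dark, 3 of 7 members were called higher in P815-IFNG tumors by edgeR, where 0.909% of all genes were. These were Irgm1 at 1.53 on the log2 scale (SE 0.35, edgeR adjusted p = 0.0183), Ifi47 with 1.18 (0.26, adjusted p = 0.0152 in edgeR) and Iigp1 with 1.42 (0.40, adjusted p = 0.0472 in edgeR). The others were at 1.10 for Irgm2, 0.93 for Igtp, 0.79 for Tgtp1 and 1.60 for Tgtp2, with adjusted p from 0.0586 to 0.567 in edgeR. The same genes had adjusted p of 0.0280 (Irgm1), 0.0253 (Ifi47) and 0.0238 (Iigp1) from edgeR in the 10 libraries. The count was 0 without the first P815-IFNG light library (of 143 genes called) or the first P815-IFNG dark library (of 179), and 1 without the second P815-M light library (of 164). It was 5 without the deep light library (of 275), the deep dark library (of 279) or the third P815-M dark library (of 212). It was 6 without the second P815-IFNG light library (of 430).

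Tgtp1 and Tgtp2 are near-identical copies, and their rows are uncertain as single genes. Of the 100-base windows of Tgtp1's exons, 70.3% also occur in Tgtp2, and of those of Tgtp2, 76.8% occur in Tgtp1. Igtp and Irgm2 shared 5.16% and 3.01% of their windows with each other, and Irgm1 and Iigp1 shared 0.0% with any other gene. Ifi47 shares 111 exonic bases with Olfr56 on the same strand and 106 with Gm12188 on the opposite strand, and Tgtp1 shares 223 with Gm12185. When the counts of Tgtp1 and Tgtp2 were summed, the log2 fold change of light over dark over both lines came to 2.00 (SE 0.42, edgeR adjusted p = 0.0167). For Igtp and Irgm2 together it was 1.64 (0.29, adjusted p = 0.00613 from edgeR). In P815-IFNG tumors alone the sum of Tgtp1 and Tgtp2 gave 2.50 (SE 0.54, edgeR adjusted p = 0.134), against 4.38 for the Tgtp1 row.

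The share of Tgtp1 in the counts of both copies was 22.6% of 3034 counts in the deep library of the light group, with a 95% Wilson interval of 21.2% to 24.1%, and 4.55% of 176 counts in that of the dark group, with 2.32% to 8.71%. In the other P815-IFNG libraries it was 33.1% and 18.2% in light (of 151 and 55 counts) and 7.89% of 76 counts and 4 of 20 counts in dark. In P815-M tumors it was 12.8%, 44.4% and 28.9% in light, and 6 of 15, 1 of 2 and 2 of 21 counts in dark, over at most 39 counts per library. Light and dark overlapped in these shares outside the deep pair, and the intervals cover counting error only.

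The upstream pathway was set beside the members. Ifng itself had 37 and 4 counts (14.9 and 1.95 CPM) in the first P815-IFNG light libraries and 76 counts (1.76 CPM) in the deep one. In P815-IFNG dark it had 6, 3 and 30 counts, the last in the deep library. In P815-M tumors it had 4, 1 and 4 counts in light and 2, 0 and 3 in dark. The library with the highest Ifng CPM was the one with the highest level of 6 IRG genes. The second and the deep P815-IFNG light library had 1.95 and 1.76 CPM of Ifng, against 2.08 in the first P815-M light library. Their mean log2 CPM of the members was 5.11 and 5.44, against 4.63 in that P815-M library. The part of Ifng in the IRG values was not tested. How reads of the module's Ifng copy were divided between this row and the knock-in rows was not tested.

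Irf1, a transcription factor gene that IFNG induces, had 230, 92.2 and 72.5 CPM in P815-IFNG light and 91.2, 41.9 and 24.1 in P815-IFNG dark, the deep library last. In P815-M tumors it was at 93.4, 78.5 and 73.8 CPM in light and 42.5, 20.3 and 61.3 in dark, without overlap. Over both lines Irf1 rose by 1.18 on the log2 scale (SE 0.24, edgeR adjusted p = 0.0129). Without the term for the kind of library 0 genes were called in this comparison.

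**Figure D4:**
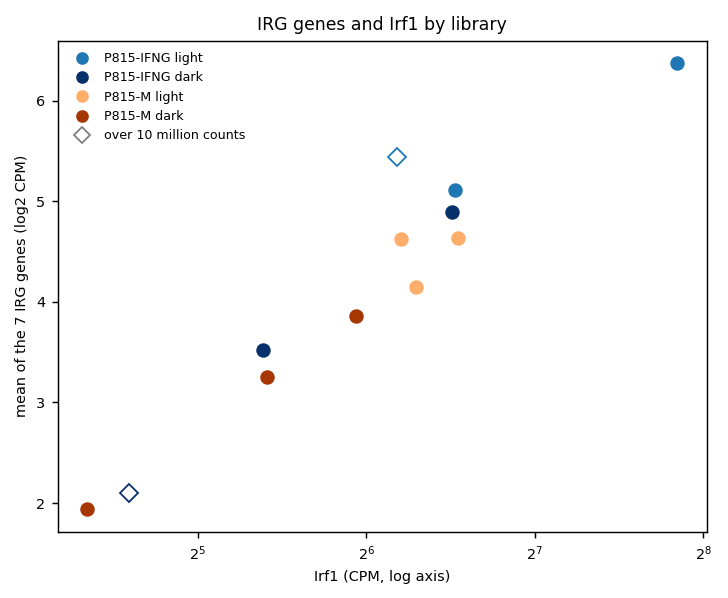
Mean log2 CPM of the 7 IRG genes against the level of Irf1 (CPM, log axis), with 1 point per library, colored by group, and open diamonds for the 2 deep libraries. The libraries run from 1.94 on the y axis in the second P815-M dark library to 6.37 in the first P815-IFNG light library.

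By a fixed rule, the 8 genes most like the mean of the members over the 10 libraries, among 10014 genes of at least 10 CPM, were Irf1 (Pearson's r = 0.98), Gbp9 (0.98), Samhd1 (0.98), Gbp2b (0.97), Gbp6 (0.97), Gbp7 (0.97), Gbp4 (0.97) and Zbp1 (0.96). The median r of all ranked genes was -0.03. Of the 8, 5 encode guanylate-binding proteins. Samhd1 encodes a phosphohydrolase that breaks down deoxynucleotides and Zbp1 a sensor of Z-form nucleic acids. These correlations describe 10 libraries that share groups and depth, and carry no test.

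Other genes of the pathway were counted by lists for light against dark over both lines, where 0.697% of all genes were called higher. The calls come from the fit used for the members and share its limits. Over all genes 149 were called in either direction, against 77 in the 10 libraries, 42 without the first P815-IFNG light library and 0 without the term for the kind of library. Of the guanylate-binding proteins, GTPases that act with the IRG proteins at the vacuole, 10 were tested, all 10 with values above 0. The median log2 fold change of the 10 was 1.81, and 8 were called. Gbp2b rose by 2.53 (SE 0.64, edgeR adjusted p = 0.0471), Gbp2 by 1.66 (0.38, adjusted p = 0.0268 in edgeR) and Gbp7 by 1.20 (0.25, adjusted p = 0.0149 in edgeR). Of the related IRG genes 9 of 14 were in the files and tested, all 9 with values above 0, a median of 1.20 and 2 called. The called genes were 9930111J21Rik2 at 1.17 (0.28, adjusted p = 0.0319 in edgeR) and Gm4951 at 2.21 (0.54, adjusted p = 0.0379 in edgeR), the latter named after its value was seen. Irgq, a distant relative, was at 0.27 and was not called.

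Of 15 genes of the IFNG receptor, JAK, STAT and IRF chain the median was 0.14, and Irf1 was among those called. Stat3 was at -0.05 and the phosphatase gene Ptpn6 at 0.14. Of 16 genes of ATG conjugation, the autophagy machinery that brings IRG proteins to the vacuole, and of vacuole targeting, 0 were called in edgeR and 1 had an unadjusted p under 0.05, with a median of -0.02. The autophagy adaptor Sqstm1 had 371 ± 25.5 CPM in P815-IFNG light and 367 ± 14.7 in P815-IFNG dark (SD, n = 3, deep library included). Of 8 other IFNG-induced effectors of macrophages 2 were called, Nos2, the inducible nitric oxide synthase, at 1.47 (SE 0.33, edgeR adjusted p = 0.0245) and Cybb, a subunit of the phagocyte oxidase, at 1.20 (0.29, adjusted p = 0.0362 from edgeR), and the median was 1.43. Cd274, which encodes PD-L1, was at 0.91 and was not called.

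**Figure D5:**
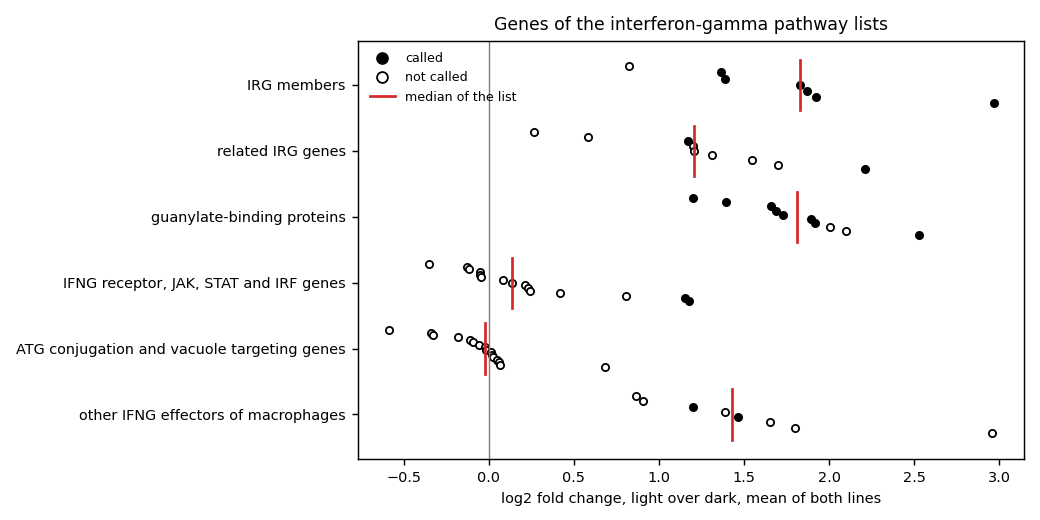
Log2 fold change of light over dark, mean of both lines, for each gene of 6 lists, with filled points for called genes, open points for the others and a red bar at the median of the list. The median is 1.83 for the IRG members, 1.81 for the guanylate-binding proteins, 0.14 for the receptor chain and -0.02 for the ATG genes.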

How the data were processed

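Libraries were made with the TruSeq Stranded mRNA kit from 12 tumors, 3 per group. The authors trimmed reads with fastp, aligned them to mm10 with the knock-in sequences added (STAR 2.7.9a) and counted them per gene symbol (HTSeq 0.13.5, default parameters). The deposited values are these raw read counts, without removal of mitochondrial genes or adjustment for batches; the annotation release is not given in the sources used here. The study adjusted its counts for a batch that the sources used here do not name. Groups were taken from the labels.

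Left out were 13 mitochondrial rows and genes whose counts summed to under 10. Counts were tested with edgeR 4.0.16 (R 4.3.3, TMM, quasi-likelihood test, Benjamini-Hochberg over 18804 genes), with 1 mean per group over 12 libraries and a term for the kind of library (the 2 deep libraries or the other 10), which is informed by the P815-IFNG tumors only, since both deep libraries are among them. Standard errors (SE) of log2 fold changes are not given by this test. They were derived as the absolute log2 fold change over the square root of its F statistic, and are approximate. For single members, exact permutation tests on log2 CPM were two-sided. CPM was computed on the counts without mitochondrial rows. Simulated counts with known changes tested the script. Coordinates come from GRCm38 (annotation M21) and promoter windows from RefSeq on GRCm38.p6, aligned with Biopython 1.88. Protein sequences were not used here.

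Named are all 7 members in every library, Ifng and Irf1, at most the 3 genes of highest mean CPM in each list, and the 8 genes of highest Pearson's r with the members. The values of 1 gene under this rule are not reported here. Further called genes of a list were named after their values were seen. The members and lists, the lists being compiled from general knowledge, were chosen with earlier results of these data known. Alternatives were DESeq2 1.42.0, its size factors, edgeR's filterByExpr, no filter, no term, only the 10 libraries, only the groups compared, ComBat-seq (sva 3.50.0) with the kind of library as batch, the replicate number as a block, summed rows, and each library left out.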

Additional observations from a re-analysis of the deposited data

How the results depend on the processing

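The direction of the 7 members' values held under all alternatives run for light against dark in P815-IFNG tumors, in P815-M tumors and over both lines, and between the lines in light and over light and dark; it turned in the dark and in the difference between the lines. The number of members called moved. For P815-IFNG light against dark (0 called) it was 7 after ComBat-seq and with no filter, and 1 with DESeq2. For P815-M light against dark (0) it was 1 after ComBat-seq (257 genes called in all), 5 with no filter and 1 with only the groups compared (244 genes). For P815-IFNG against P815-M in light (0) it was 7 after ComBat-seq, 1 with DESeq2 (86 genes called in all), 7 with no filter and 4 with only the groups compared, and in the dark (0) 1 after ComBat-seq and 2 with no filter. For the difference between the lines (0) it was 1 with no filter. For light against dark over both lines (6) it was 0 in the 10 libraries and 0 without the term. For P815-IFNG against P815-M over light and dark (3) it was 6 after ComBat-seq, 5 with no filter and 0 without the term. The cause was not tested.

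Over all genes, called counts for P815-IFNG light against dark (2) were 1 in the 10 libraries, 157 after ComBat-seq, 54 with DESeq2, 1 with filterByExpr, 211 with no filter and 0 without the term; for P815-M light against dark (194), 429 with no filter and 0 without the term; in light between the lines (82), 39 in the 10 libraries, 262 after ComBat-seq, 245 with no filter, 3 without the term and 140 with only the groups compared; in the dark (290), 570 after ComBat-seq, 640 with no filter and 2 without the term; for the difference (3), 40 after ComBat-seq, 20 with DESeq2, 1 with its size factors, 1 with filterByExpr, 203 with no filter and 0 without the term; for light over both lines (149), 77 in the 10 libraries, 287 after ComBat-seq, 339 with no filter and 0 without the term; and for the lines over light and dark (245), 610 after ComBat-seq, 446 with no filter and 17 without the term. DESeq2's size factors moved the share of higher calls from 72.4% to 60.3% in the dark and from 69.8% to 58.8% over light and dark. Without the term the median over all genes of the log2 difference between the lines was 0.15 in light, 0.33 in the dark and 0.27 over both, against at most 0.063 with it.

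With 1 library left out at a time, 0 to 5 members were called in P815-IFNG light against dark, 0 to 1 in P815-M, 0 to 6 between the lines in light, 0 to 0 in the dark, 0 to 0 for the difference, 0 to 7 for light over both lines and 0 to 6 between the lines over light and dark, with 1 to 52, 61 to 237, 29 to 161, 153 to 444, 1 to 14, 42 to 209 and 143 to 430 genes in the same order. When 1 deep library is left out, the other is taken up by the term.

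Values that turned were, in the dark, Tgtp1 (-0.62), at 0.31 in the 10 libraries, 0.32 with only the groups compared and 1.01 when summed with Tgtp2. Without 1 library it ran from -1.56 to 0.33, Igtp from -0.94 to 0.86, Iigp1 from -0.32 to 1.32 and Tgtp2 from -0.19 to 2.15. For the difference between the lines, Irgm1 was -0.064, Irgm2 -0.24 and Tgtp2 -0.25 in the 10 libraries, and without 1 library they ran from -0.22 to 1.12, -0.56 to 0.71 and -0.25 to 1.84.

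Among 13 same-numbered pairs in the 10 libraries the correlation of deviations was -0.18 to 0.10, and 1 was over 0.1. Whether the replicate numbers pair the samples cannot be decided from these values. The deep libraries, which share a replicate number, were left out. Without them the deviations within each P815-IFNG group mirror each other, so these values are not independent. Between P815-IFNG light and dark, each same-numbered pair had r = 0.033 and each other pair -0.033. With the replicate number as a block, 7 members were called in P815-IFNG light against dark (of 62 genes called), 2 in P815-M (of 282) and 4 between the lines in light (of 104). The count was 1 in the dark (of 367) and 5 over light and dark (of 244), and 16 genes were called for the difference.

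Only the groups compared gives no value for the difference or the averages, which need all 4 groups. Low counts limited Tgtp1 most, with 1 to 50 counts in the 10 libraries. The part in them of depth, of the strand counted and of reads common to Tgtp2 was not tested.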
